A study of Mus musculus with 9 samples.

Results

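The Teashirt genes Tshz1, Tshz2 and Tshz3 encode transcription factors with widely spaced zinc fingers and a homeodomain. All 3 members were taken from the 47643 genes of the count tables as a family selected on its fold changes between the groups, with Tshz1 higher and Tshz2 lower in Tm+Yap− cells. The members were chosen by the values of that contrast, so these are given as a description, with no test. RNA was measured in 9 libraries of sorted mouse pancreatic ductal adenocarcinoma (PDAC) cells, 6 from KPF mice (GFP+Yap+ cells) and 3 from KPYYF mice (Tm+Yap− cells). The 9 libraries held 8116539 to 9635514 reads on genes.

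Mice of both genotypes carried Trp53 frt/+, Pdx-Flp and R26 FSF-CreER/Dual. KPYYF mice also carried Yap flox/flox. Flp, a recombinase made under the Pdx promoter in the pancreatic lineage, removes the frt-flanked copy of Trp53 and turns on CreER, a recombinase that tamoxifen (TAM) activates. Both cohorts were fed TAM after tumors had formed, so KPF mice are not untreated. The R26-Dual reporter turns from green (GFP) to red (tdTomato, Tm) when Cre acts. KPF cells were sorted as GFP+ and KPYYF cells as Tm+. The study describes the Tm+Yap− cells as coming from relapsed nodules, which a subset of KPYYF mice formed under extended TAM. Genotype, loss of Yap, Cre recombination, growth as a relapse and the color of the sorted cells thus cannot be told apart. Each library bears a mouse number, and 4504h and 4504s share theirs with different letters, whose meaning the labels do not give. The ages of the single mice are not in the labels. Yap1, the deleted gene, stood at 41.7 to 151 CPM (read counts scaled to library size) in KPF and 0.711 to 7.10 CPM in KPYYF libraries, on the side its label gives in all 9.

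Teashirt was first described in Drosophila, where it patterns the trunk and, with the retinal determination genes, the eye. Its vertebrate relatives are known mainly as transcriptional repressors that recruit CtBP corepressors and histone deacetylases. Tshz1 is needed in the olfactory bulb and has been studied in pancreatic islets together with Pdx1, and Tshz3 is needed for smooth muscle of the ureter.

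Tshz1 was the member that was higher without Yap. The gene (ENSMUSG00000046982) covers chr18:84011627-84087706 on the minus strand (GRCm38, GENCODE annotation), a span of 76.1 kb with up to 2 exons and a longest coding sequence of 1084 residues. Its level in KPF libraries was 35.1 CPM in 4269, 47.7 in 4435, 88.9 in 4504h, 58.7 in 4504s, 43.8 in 4515 and 39.1 in 4601, from 269 to 872 reads each. In KPYYF libraries it was 196 CPM in 4449, 218 in 4891 and 142 in 4938, from 1298 to 1999 reads. All 3 KPYYF libraries stood above all 6 KPF libraries, and the lowest of them was 1.60 times the highest KPF library, 4504h. The group means were 52.2 ± 19.7 CPM (SD, n = 6) and 185 ± 39.2 CPM (SD, n = 3), a fitted log2 fold change of 1.83 (SE 0.32), or 3.55-fold higher in KPYYF.

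Tshz2 moved the other way and by more. It (ENSMUSG00000047907) covers chr2:169633013-170071816 on the plus strand, the widest of the family at 438.8 kb, and encodes up to 1030 residues. KPF libraries held 77.9 CPM in 4269, 52.5 in 4435, 54.7 in 4504h, 69.2 in 4504s, 54.9 in 4515 and 57.1 in 4601, from 393 to 803 reads each. KPYYF libraries held 4.50 CPM in 4449, 6.43 in 4891 and 2.95 in 4938, which rest on 38, 59 and 27 reads. The gene was detected in each KPYYF library, and the lowest KPF level was 8.16 times the highest KPYYF level. The means were 61.1 ± 10.2 CPM (SD, n = 6) and 4.63 ± 1.74 CPM (SD, n = 3), a log2 fold change of -3.72 (SE 0.41), 13.2-fold lower in KPYYF.

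Tshz3 was the least abundant by reads and the least settled. It (ENSMUSG00000021217) covers chr7:36698118-36773553 on the plus strand, 75.4 kb, and encodes up to 1081 residues. KPF libraries held 4.75 CPM in 4269, 1.63 in 4435, 13.1 in 4504h, 6.13 in 4504s, 7.06 in 4515 and 6.11 in 4601. KPYYF libraries held 0.118 CPM in 4449, 4.14 in 4891 and 2.62 in 4938. The groups overlapped, because KPF library 4435 with 16 reads lay below 4891 with 38 reads and 4938 with 24 reads. Library 4449 held 1 read of Tshz3, a count with a 95% Poisson interval of 0.0253 to 5.57 reads. The means were 6.47 ± 3.78 CPM (SD, n = 6) and 2.30 ± 2.03 CPM (SD, n = 3), and the fitted log2 fold change was -1.49 with an SE of 1.13. Without 4449 it was -0.93, and without 4891 it was -2.22. Tshz1, Tshz2 and Tshz3 transcripts shared no identical run longer than 29 bases, and in the last 1000 bases, where 3′-end reads gather, none longer than 15 bases.

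Yap has no DNA-binding domain and reaches its targets through TEAD factors, often beside AP-1, so the promoters of the members in hand were searched for the core letters of both. The 300 bases around the RefSeq start (GRCm38.p6, 5′ to 3′ on the gene's own strand) are shown for Tshz2 and Tshz3, with any match in capitals. The Tshz2 window is chr2:169632259-169632558 and the Tshz3 window is chr7:36697868-36698167. The Tshz2 window ends before the GENCODE start of the gene at 169633013, so it describes the RefSeq start only. The Tshz3 window holds the GENCODE start at 36698118. Tshz1 is named only.
Tshz2: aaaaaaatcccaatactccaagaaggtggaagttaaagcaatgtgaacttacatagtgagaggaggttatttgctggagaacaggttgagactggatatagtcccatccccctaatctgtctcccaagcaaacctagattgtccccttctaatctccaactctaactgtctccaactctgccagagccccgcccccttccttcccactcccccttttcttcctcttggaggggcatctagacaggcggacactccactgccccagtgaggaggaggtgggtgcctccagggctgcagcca
Tshz3: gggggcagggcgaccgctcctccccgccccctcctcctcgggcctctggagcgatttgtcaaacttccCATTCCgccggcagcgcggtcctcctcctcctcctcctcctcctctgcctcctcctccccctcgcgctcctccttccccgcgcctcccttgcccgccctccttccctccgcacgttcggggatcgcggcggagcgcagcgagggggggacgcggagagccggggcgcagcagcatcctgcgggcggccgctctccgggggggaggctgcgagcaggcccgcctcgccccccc
The TEAD letters GGAATG, searched on both strands, were not in the Tshz2 window and occurred 1 time in the Tshz3 window, read as CATTCC because the match lies on the other strand, 177 bases upstream of the start. The AP-1 letters TGANTCA, also on both strands, were in neither. Over 32851 mouse promoters of the same length, 14.7% held the TEAD letters and 7.81% held the AP-1 letters. The Tshz3 window was 76% G or C and the Tshz2 window 52%. A match to so few letters is a description of the sequence and not a bound site.

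Thus 2 of the 3 members did not overlap between the groups, 1 in each direction, and they were chosen for it. Among the 14105 genes tested, 9.1% did not overlap, 3.92% with KPYYF above and 5.18% with KPYYF below, and 46.7% had a log2 fold change above 0. By edgeR, 1.1% of them passed an adjusted p of 0.05, 0.305% higher and 0.794% lower in KPYYF, and 16.1% were under an unadjusted p of 0.05. In these bulk libraries, fewer cells that make a transcript and less transcript in each cell cannot be told apart. Intervals from read counts cover counting error only and leave out differences between mice. The reads carry no molecular identifiers, so copies of 1 molecule cannot be told from separate molecules. Nothing beyond the mouse numbers says how separate the libraries of a group are.

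**Figure D1:**
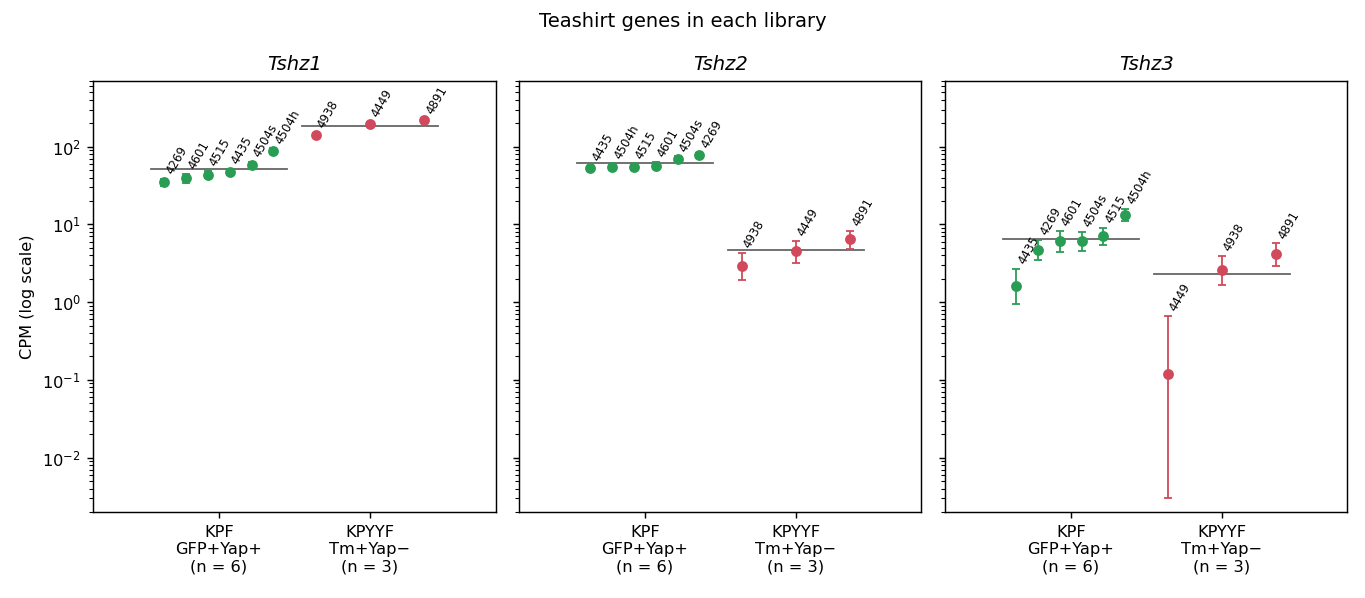
Level of Tshz1, Tshz2 and Tshz3 in each library in CPM (log axis), with KPF (GFP+Yap+) libraries in green, KPYYF (Tm+Yap−) in red, the mouse number beside each point and 95% Poisson intervals of the read count as bars; the line is the group mean. KPYYF libraries sit at 142 to 218 CPM for Tshz1, above all KPF libraries, and at 2.95 to 6.43 CPM for Tshz2, below all of them, while Tshz3 overlaps.

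The members also differed in how they varied among the KPF libraries themselves. The coefficient of variation over the 6 KPF libraries was 37.7% for Tshz1, 16.6% for Tshz2 and 58.4% for Tshz3. Among genes within 1.5-fold of each member's own KPF level, the median was 35.9% for Tshz1 (2478 genes), 35.0% for Tshz2 (2334 genes) and 69.9% for Tshz3 (2052 genes). Tshz2 was thus steady for its level, since 5.23% of the genes at that level varied less, against 55.4% for Tshz1 and 33.2% for Tshz3. The same KPF values entered the choice of the members, so these ranks are a description and not a test. Library 4504h had the highest Tshz1 and Tshz3 levels of the KPF group while its Tshz2 level was among the lower ones. Library 4269 had the lowest Tshz1 and the highest Tshz2.

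Counts of 2 genes in the same library can be set against each other without any scaling between libraries. The ratio of Tshz1 to Tshz2 reads was 0.451, 0.909, 1.62, 0.849, 0.799 and 0.684 in KPF libraries 4269, 4435, 4504h, 4504s, 4515 and 4601. It was 43.6, 33.9 and 48.1 in KPYYF libraries 4449, 4891 and 4938. On the log2 scale, with 1 read added to each count, the means were -0.28 ± 0.60 (SD, n = 6) and 5.34 ± 0.25 (SD, n = 3), 5.62 apart, which is 49.1-fold. The reads were not divided by transcript length and come from 3′ ends, so a ratio in a single library does not rank the genes by molecules, and only its change between libraries is read here.

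Tshz3 was compared with the other members in the same way. The log2 ratio of Tshz3 to Tshz2 had means of -3.43 ± 0.98 in KPF and -1.69 ± 2.26 in KPYYF, a difference of 1.74 within the spread of the KPYYF libraries. In 4891 and 4938 the ratio of reads was 0.644 and 0.889, above all KPF libraries, and in 4449, where it rests on 1 Tshz3 read, it was 0.0263, below all of them, though on the log2 scale with 1 read added it was -4.29, above 4435 at -4.92. The log2 ratio of Tshz1 to Tshz3 had means of 3.15 ± 0.83 and 7.03 ± 2.31, 3.88 apart (14.7-fold). That size rests on 4449 and its 1 Tshz3 read, with a log2 ratio of 9.70 against 5.68 in 4891 and 5.70 in 4938. Without 4449 the difference was 2.54, and with 10 reads added to each count it was 3.06.

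As a share of the reads summed over the family, Tshz1 took 42.8 ± 8.97% in KPF (29.8 to 56.7%) and 96.4 ± 1.18% in KPYYF (95.4 to 97.7%). The Tshz2 share was 52.0 ± 10.1% in KPF (34.9 to 66.1%) and 2.35 ± 0.418% in KPYYF (2.00 to 2.81%). Tshz3 took 5.21 ± 2.35% and 1.22 ± 1.00%. For Tshz1 and Tshz2, the counting error of a share within a library was small beside the gap between the groups. In 4938, the KPYYF library with the fewest Teashirt reads (1349), the 95% Wilson interval of the Tshz2 share was 1.38 to 2.90%. The summed level of the family was 120 ± 21.9 CPM in KPF (102 to 157) and 192 ± 41.2 CPM in KPYYF (147 to 229). These sums overlapped, since 4938 at 147 CPM lay below 4504h at 157 CPM.

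**Figure D2:**
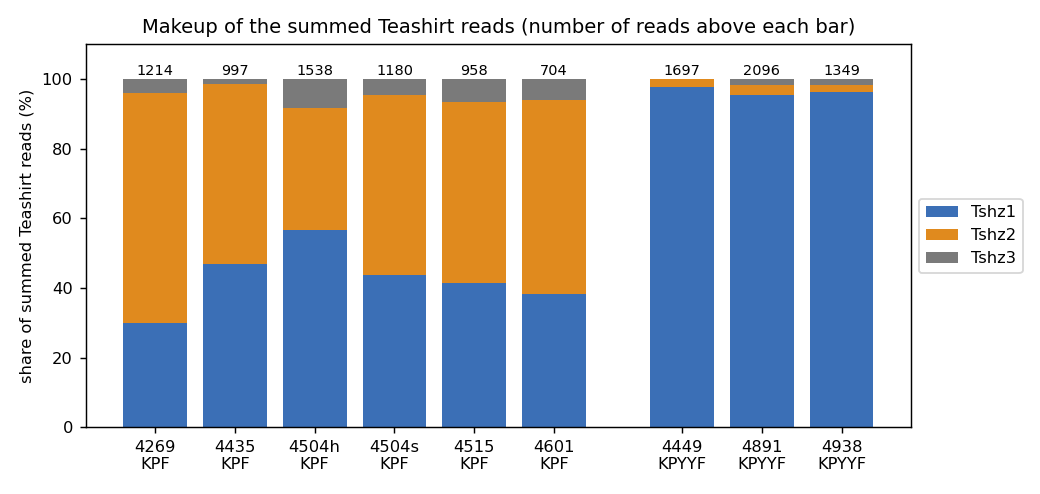
Share of the reads summed over Tshz1, Tshz2 and Tshz3 that each gene took, in percent, for each of the 6 KPF and 3 KPYYF libraries as stacked bars from 0. Tshz2 takes 34.9 to 66.1% in KPF and 2.00 to 2.81% in KPYYF libraries.

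The related zinc finger homeobox genes were looked at next, since they belong to the same homeobox class. Of 11 genes on the list, 10 had the 100 reads needed for the test and Adnp had fewer. Their log2 fold changes split into 5 above and 5 below 0 with a median of -0.07, the same as the median over all genes tested, -0.07. None passed an adjusted p of 0.05 in edgeR and none was under an unadjusted p of 0.05, against 1.1% and 16.1% of all genes tested. DESeq2 called none, against 8.71% of all genes it adjusted, and limma-voom called none. The highest value was 1.29 for Homez (adjusted p = 0.615, edgeR) and the lowest -2.87 for Zfhx4 (adjusted p = 0.428, edgeR), a large zinc finger homeobox gene of developing muscle and brain. Both rest on few libraries. Homez was at 19.7 CPM in 4449 and at 5.56 and 1.97 CPM in the other KPYYF libraries, against 0.331 to 9.48 CPM in KPF. Zfhx4 was at 76.1 and 33.7 CPM in 4504h and 4504s and at 0.409 to 6.18 CPM in the other KPF libraries, against 0 to 4.81 CPM in KPYYF.

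The known partners and targets of Teashirt proteins came next, 14 genes of which 12 were tested. No read fell on Myocd, the muscle coactivator that Tshz3 binds, and Apbb3 had no matching identifier. None of the 12 passed the adjustment in edgeR, against 1.1% of all genes tested, and DESeq2 and limma-voom called none. At an unadjusted p of 0.05 there were 3 of the 12, against 16.1% of all genes tested. Of the 12, 1 had all KPYYF libraries above and 1 all below, against 3.92% and 5.18% of all genes tested. Hdac2, a histone deacetylase, had 41.9 ± 9.92 CPM in KPF (n = 6) and 81.2 ± 13.5 CPM in KPYYF (n = 3), a log2 fold change of 0.95 (SE 0.31, adjusted p = 0.149, edgeR), with all KPYYF libraries above. Set, a histone chaperone found with Teashirt and the FE65 adaptor, had a log2 fold change of 0.75 (adjusted p = 0.186, edgeR). Ctbp2, a corepressor, had -0.98 (adjusted p = 0.249, edgeR), with all KPYYF libraries below. Partners had a median of -0.49, and the lowest value was -2.05 for Prokr2 (adjusted p = 0.672, edgeR), a prokineticin receptor downstream of Tshz1 in the olfactory bulb. Prokr2 rests on KPF library 4435 with 230 reads (23.5 CPM), while the other KPF libraries held 0 to 4.38 CPM and the KPYYF libraries 0, 0 and 3.93 CPM. Set and Ctbp2 were singled out after their values were seen.

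In the fly, teashirt acts in the eye with the sine oculis, eyes absent, dachshund and eyeless genes, whose mouse relatives include Six4, Eya1, Dach1 and Pax6. Of 13 such genes, 7 were tested and 1 passed in edgeR, against 1.1% of all genes tested. Six4, a homeodomain factor, ranged from 0.221 to 5.50 CPM in KPF and from 23.3 to 42.0 CPM in KPYYF, a log2 fold change of 3.74 (SE 0.73, adjusted p = 0.0351, edgeR). The study singled out Six4 on these samples, so this is not independent evidence, and in 18 alternative fits it passed in 10, with adjusted p from 7.57e-05 to 0.0969 (edgeR, DESeq2 or limma). Eya1, a phosphatase and transcriptional coactivator, had the highest value of the list, 5.07 (adjusted p = 0.171, edgeR), but it was uneven, with 110 and 116 reads in 4891 and 4938 and 0 in 4449. Dach1, a corepressor, had the lowest, -1.72 (adjusted p = 0.710, edgeR). The list's median was -0.11.

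**Figure D3:**
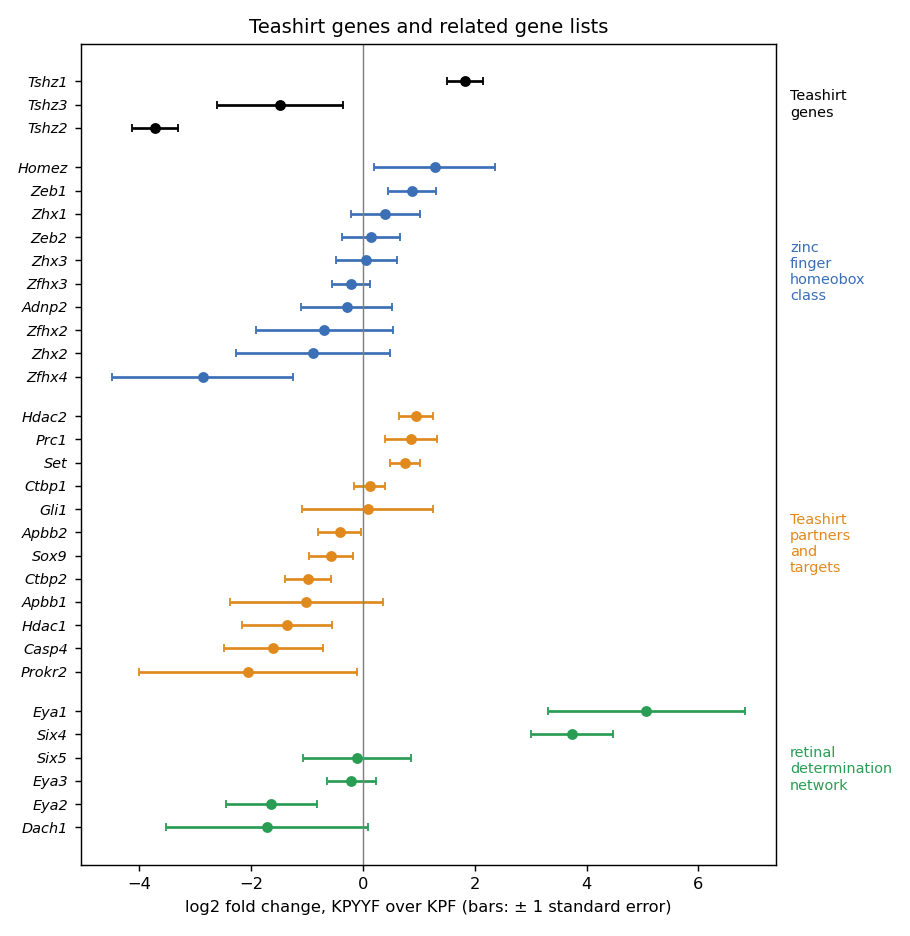
Log2 fold change (KPYYF against KPF) of the Teashirt genes and of the tested genes of the zinc finger homeobox, Teashirt partner and retinal determination lists, except 1 retinal determination gene that is not shown, with bars of 1 standard error. Six4 is the list gene that passed the adjustment in edgeR, and Tshz1 at 1.83 and Tshz2 at -3.72 lie on either side of 0.

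The genes beside each member were examined for changes along the chromosome. For each member the 5 nearest tested genes on each side were taken, 30 in all, with predicted genes and numbered clones left out. None passed the adjustment in edgeR (7 of the 30 were under an unadjusted p of 0.05, as were 16.1% of all genes tested). DESeq2 called 4 of the 30, with 8.71% called over all genes it adjusted, and limma-voom called 0. Beside Tshz1 the 4 include Mbp, a myelin gene 1426 kb away with a log2 fold change of -2.87 (adjusted p = 0.0618, edgeR), and Cyb5a, a cytochrome gene, with -1.28 (adjusted p = 0.157, edgeR). Beside Tshz2 they are Atp9a, a phospholipid flippase gene, with -2.11 (adjusted p = 0.0884, edgeR), and Aurka, a mitotic kinase gene, with 1.82 (adjusted p = 0.0817, edgeR). Zadh2, an oxidoreductase gene, starts 0.4 kb from Tshz1. It had 27.5 ± 20.2 CPM in KPF and 71.6 ± 24.6 CPM in KPYYF, a log2 fold change of 1.38 (SE 0.54, adjusted p = 0.223, edgeR), with overlapping groups. On the other side of Tshz1, Zfp516 lay 1006.3 kb away with -0.60 (adjusted p = 0.503, edgeR). The nearest neighbour of Tshz2, the zinc finger gene Zfp217 at 36.8 kb, had 49.0 ± 17.5 CPM in KPF and 47.7 ± 16.3 CPM in KPYYF, a log2 fold change of -0.04 (SE 0.37, adjusted p = 0.977, edgeR). Zfp64, 677.4 kb off on the other side, had -0.27 (adjusted p = 0.816, edgeR). Tshz3 stands far from the other genes so taken, with Zfp507 at 895.1 kb (log2 fold change 0.95) and Uri1 at 1186.4 kb (0.55). Gm37452, a predicted gene within the Tshz3 span with 199 reads over the 9 libraries, was left out by that choice. The medians of the 10 neighbours were -0.68 for Tshz1, -0.20 for Tshz2 and 0.46 for Tshz3. Of the 10, 3 were above 0 for Tshz1, 3 for Tshz2 and 7 for Tshz3.

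**Figure D4:**
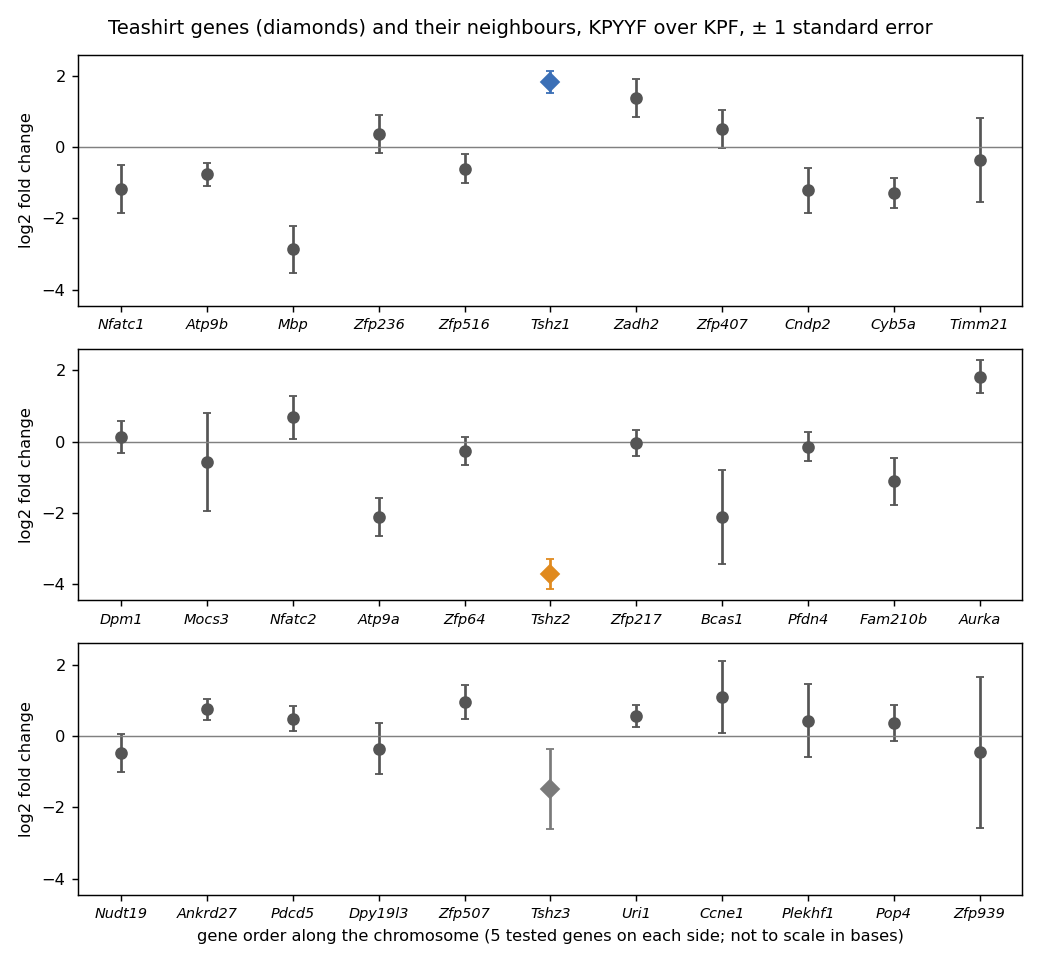
Log2 fold change (KPYYF against KPF) of each member (diamond) and of its 5 nearest tested genes on each side, in their order along the chromosome and not to scale, with bars of 1 standard error. Predicted genes and numbered clones are left out. Zadh2 at 0.4 kb from Tshz1 is at 1.38 and Zfp217 at 36.8 kb from Tshz2 is at -0.04.

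Genes with the most similar pattern were found by Pearson's r of log2 CPM over the 9 libraries, among 8845 genes for Tshz1 and Tshz2 and 8846 for Tshz3. For Tshz1 they were Cit, a kinase of cell division (r = 0.97), Pold2, a subunit of a replicative DNA polymerase (0.97), and Ror2, a Wnt receptor (0.96). After the group means were removed, r was 0.87, 0.89 and 0.75. For Tshz2 they were C9orf72 (0.98), Ypel2 (0.97) and Gata5, a zinc finger transcription factor (0.96), and after removal 0.18, 0.92 and 0.56. C9orf72 thus shared the group difference of Tshz2 but little of its variation within groups. For Tshz3 they were Wdr37 (0.96), Ttc37 (0.96) and Tdrd7 (0.93), with 0.96, 0.94 and 0.91 after removal. These values describe 9 libraries that share groups and scaling, and they were the highest of all those compared.

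Markers of other cells were summed in each library, because a sort can carry some of them along. Fibroblast markers summed to 418 to 5621 CPM in KPF and 1245 to 3444 CPM in KPYYF, immune markers to 390 to 7218 and 322 to 674 CPM, and acinar markers to 61.9 to 18714 and 68.1 to 4583 CPM. Over the same KPF libraries Tshz2 stayed between 52.5 and 77.9 CPM, and it was highest in 4269, the library with the lowest fibroblast sum. It was next highest, at 69.2 CPM, in 4504s, the library with the highest fibroblast sum. Tshz1 ran closer to the fibroblast sum within each group. In KPF both were lowest in 4269 (418 and 35.1 CPM) and next lowest in 4601 (614 and 39.1 CPM). Both were highest in the libraries of mouse 4504, in reverse order (4108 and 88.9 CPM in 4504h, 5621 and 58.7 CPM in 4504s). The order was also reversed between 4435 (2023 and 47.7 CPM) and 4515 (2339 and 43.8 CPM). In KPYYF the order was the same for both, 4938 (1245 and 142 CPM), 4449 (1397 and 196 CPM) and 4891 (3444 and 218 CPM). Between the groups the fibroblast sums overlapped and the Tshz1 levels did not. Gene by gene, 6 of the 10 fibroblast markers had log2 fold changes above 0 and 4 below (median 0.38), and none passed the adjustment in edgeR. Pdgfra (2.90, adjusted p = 0.105, edgeR) and Thy1 (1.92, adjusted p = 0.251, edgeR) were under an unadjusted p of 0.05, as were 16.1% of all genes tested. For Thy1 all KPYYF libraries stood above all KPF libraries, as for 3.92% of all genes tested. The part of fibroblast RNA in the Tshz1 levels was not tested. Without 4504s, 4449 and 4601, the libraries highest in acinar or immune markers, the log2 fold changes were 1.77 for Tshz1, -3.64 for Tshz2 and -0.94 for Tshz3. Endothelial markers summed to 10.8 to 66.2 CPM in KPF and 10.4 to 14.8 in KPYYF, islet markers to 2.45 to 65.4 and 2.62 to 11.1, and smooth muscle and pericyte markers to 29.5 to 284 and 20.0 to 79.9. Those 3 sums overlapped between the groups, the endothelial one through KPF library 4269 at 10.8 CPM, since the other KPF libraries held 34.1 to 66.2 CPM. Most tested genes of these lists had log2 fold changes below 0, 5 of 5 smooth muscle and pericyte genes (median -2.52), 4 of 5 endothelial (-1.46) and 5 of 6 islet genes (-3.90), as did 7 of 7 immune genes (-1.94). None of them passed the adjustment in edgeR, and 3, 2, 3 and 0 were under an unadjusted p of 0.05. Over all genes tested, 1.1% passed and 16.1% were under an unadjusted p of 0.05.

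The summed levels of a further pair of lists were lower in all KPYYF libraries than in all KPF libraries, as Tshz2 was. Epithelial markers, which the sorted tumor cells themselves make, summed to 3229 to 11656 CPM in KPF and 568 to 1823 CPM in KPYYF. All 8 had log2 fold changes below 0 and 3 fell past the adjustment in edgeR, the keratin Krt18 (-2.49, adjusted p = 0.0141), the adhesion gene Cdh1 (-2.92, adjusted p = 0.0351) and the mucin Muc1 (-4.11, adjusted p = 0.0422). Over all genes tested, 0.794% passed as lower in KPYYF. Schwann and glial markers summed to 18.1 to 96.7 CPM in KPF and 0.545 to 7.34 CPM in KPYYF. That sum was almost all S100b, which fell (log2 fold change -3.84, adjusted p = 0.0357, edgeR), while Sox10 and Gfap had no read in any library. The part of any of these lists in the Tshz2 result was not tested. Markers of the mesenchymal state summed to 1302 to 4122 and 1741 to 3796 CPM. Of the 8, 0 passed in edgeR and 1 was under an unadjusted p of 0.05, against 1.1% and 16.1% of all genes tested. By gene, 6 of the 8 had log2 fold changes above 0 and 2 below (median 0.61). The 1 was Snai1 (1.59, adjusted p = 0.241, edgeR), with all KPYYF libraries above all KPF libraries, as for 3.92% of all genes tested.

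**Figure D5:**
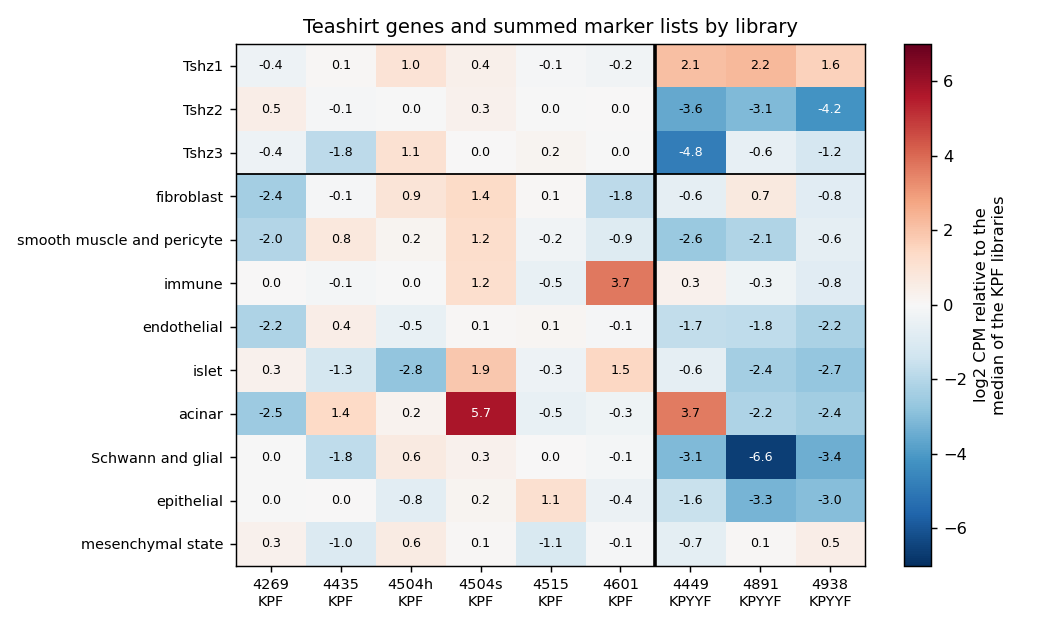
Level of each Teashirt gene and summed level of each marker list in each library, as log2 relative to the KPF median, with the value in each cell. Tshz2 is between -3.10 and -4.20 in KPYYF libraries, where the epithelial sum is between -1.58 and -3.26.

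Xist, expressed from the inactive X chromosome of female cells, differed between libraries, with 6 of 9 at 1000 reads or more, 3 of them KPF and all 3 KPYYF. Within those 6 the order was kept. Tshz1 was 47.7, 88.9 and 58.7 CPM in 4435, 4504h and 4504s of the KPF group, against 142 to 218 CPM in KPYYF, a log2 fold change of 1.52. Tshz2 was 52.5, 54.7 and 69.2 CPM against 2.95 to 6.43 CPM, -3.65. Tshz3 gave -1.57 and overlapped.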

How the data were processed

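RNA of sorted GFP+ (KPF, n = 6) and Tm+ (KPYYF, n = 3) PDAC cells was made into 3′-end libraries (Lexogen QuantSeq). The deposited values are whole read counts per gene, 1 file per library. The submitters' processing notes name STAR, HTSeq and the mm10 build, while versions, annotation and strand setting are not given in the sources used here. The study's methods, under a heading of RNA sequencing, name hybridization to expression BeadChips and also a filter on summed reads and DESeq2. The values are read counts. From 58.0 to 62.7% of each file's reads were on no gene and were left out.

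Of 47643 genes, 47224 were matched to a symbol, and the 14105 with at least 100 reads summed over the libraries were tested with edgeR 4.0.16 (R 4.3.3), using TMM scaling, a quasi-likelihood test of KPYYF against KPF without covariates and Benjamini-Hochberg adjustment at 0.05. For a standard error, the absolute log2 fold change was divided by the square root of F. CPM used TMM library sizes, and log2 CPM a prior count of 2. DESeq2 1.42.0, limma 3.58.1, other scalings and filters, summing 4504h with 4504s, Xist-high libraries and leaving out each library were alternatives. The code was tested on simulated data. No pair of libraries agreed within sampling noise.

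An allele that both groups carried and 1 gene of the retinal determination list are not reported here. The members and lists were chosen with earlier results of these data known. Named genes were the members, list genes that passed or the extremes of a list, the nearest neighbours and the 3 genes with the highest r among those with a mean of at least 10 CPM. Predicted genes and numbered clones were left out of the neighbours and of the genes compared by r. Set, Ctbp2, Eya1, Dach1, Mbp, Cyb5a, Atp9a, Aurka, Pdgfra, Thy1 and Snai1 were named after their values were seen.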

Additional observations from a re-analysis of the deposited data

Results flagged for a closer look

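Of the 7 sets of 6 KPF values examined for a library far from the others, 1 held such a library. The log2 ratio of Tshz1 to Tshz3 was 4.78 in KPF library 4435, the next highest was 3.24, and the gap was 0.714 of the group's range, above Dixon's 95% limit for 6 values. In that library Tshz3 had 16 reads and Tshz1 467. Chance passes this limit in about 1 in 20 groups.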

How the results depend on the processing

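No paired analysis was possible because the labels give the groups no mouse or replicate number in common, and numbers by accession order pair nothing. No member's fold change and no ratio changed direction in any alternative. Leaving out single libraries gave log2 fold changes of 1.70 to 2.04 for Tshz1, -4.03 to -3.48 for Tshz2 and -2.22 to -0.93 for Tshz3, and ratios of 5.44 to 5.81 (Tshz1 to Tshz2), 0.98 to 3.04 (Tshz3 to Tshz2, the extremes without 4938 and 4449) and 2.54 to 4.55 (Tshz1 to Tshz3, without 4449 and 4891). Without 4504s, 4449 and 4601 together, a choice made after seeing the data, the last was 2.44. Counts over all genes moved far more. The 43 genes higher and 112 lower in KPYYF became 269 and 928 with DESeq2, and 88 and 219 with no filter. With 4504h and 4504s summed, 25 were higher. In Xist-high libraries 6 were higher and 31 lower, limma-voom called 39 lower, and 177 were lower without the 3 libraries together. Leaving out single libraries gave 6 (without 4435) to 75 (without 4449) higher and 13 (without 4938) to 198 (without 4449) lower. Retinal determination genes called numbered 2 with DESeq2, 0 in Xist-high libraries, 0 without the 3 libraries, and 0 to 1 without single libraries. Neighbours called numbered 4 with DESeq2 (Mbp, Cyb5a, Atp9a and Aurka), 3 with no filter, 1 with 4504h and 4504s summed (Mbp), and 0 to 2 without single libraries (2 without 4504h). No zinc finger homeobox or partner gene was called in any alternative. The cause of these moves was not tested. Depth limits Tshz3 most, since 3 reads are 0.291 to 0.436 CPM.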

Other observations

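Reads also fell on predicted genes within the span of Tshz3 and on its strand. Gm37452 had 109 reads in KPF library 4269, 11 in 4435, 20 in 4504s, 39 in 4515 and 17 in 4601, and 0 to 3 in the KPYYF libraries. E230020A03Rik had 67 reads in KPYYF library 4449, the library with 1 read of Tshz3, 17 in 4504s, 9 in 4601, 2 in 4891 and 0 elsewhere. No read fell on the 3 noncoding genes annotated on the opposite strand of Tshz2.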
